A study of Mus musculus with 47 samples.

Results

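The genes described here are 45 mouse genes known from general knowledge to be imprinted, looked up by symbol in the deposited count tables. All 45 were found among the 23416 genes kept from each of 10 RNA-seq libraries. The libraries came from liver and from swim-up motile spermatozoa of the cauda epididymis, with 2 independent biological replicates in each of 5 groups. Ctrl-F1 males were sons of wild-type (Scml2+/y) males and KO-F1 males were sons of their Scml2-KO (Scml2-/y) littermates. Both were made by injection of testicular sperm into oocytes (ICSI) and are labelled BDF2. KO-F2 males, labelled BDF3, were born to C57BL/6 females mated naturally with individual KO-F1 males. All males used were 8 to 12 weeks old. Scml2 is X-linked and sons receive their X chromosome from their mothers, so the deleted allele cannot pass from father to son. No Ctrl-F2 library was analysed here, so KO-F2 was set against Ctrl-F1, and generation, conception and background strain cannot be told apart in that comparison.

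An imprinted gene is transcribed mostly or wholly from the allele of 1 parent. In most cases a nearby control region was methylated in the egg or in the sperm and kept that mark after fertilization. In the male germline the old marks are erased in primordial germ cells and the paternal pattern is laid down before meiosis, so mature sperm carry paternal marks on both sets of genes. Many imprinted genes regulate fetal growth, the placenta, adult metabolism or behaviour. Several are imprinted only in some tissues, such as placenta or brain. By the allele they are known to use, 26 of the genes are mostly paternal, such as Igf2, Peg3 and Kcnq1ot1, and 19 are mostly maternal, such as H19, Cdkn1c and Igf2r. The counts carry no allele information, so every value below is the sum over both alleles, and spermatozoa, which no longer transcribe, hold RNA left from earlier stages.

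The liver libraries held 11339729 to 14278900 counts, those of F1 spermatozoa 1503733 to 2778171, and the KO-F2 sperm libraries 8384266 and 11462105. The ribosomal RNA gene Rn45s took 0.636 to 1.59% of counts in liver and 3.52 to 28.7% in spermatozoa. The 12 late-spermatid markers made up 11.9 to 13.4% of counts for Ctrl-F1, 4.41 to 5.97% for KO-F1 and 14.7 to 15.2% in KO-F2 spermatozoa. The 8 hepatocyte markers made up 11.8 to 12.8% of counts in liver and at most 0.000305% in spermatozoa. In bulk samples fewer cells of a type and less RNA per cell cannot be told apart. Scml2 itself had 0 counts in every liver library and 0 to 18 in spermatozoa. A gene was taken as detected in a library at more than 3 counts, a floor of 0.21 to 0.265 CPM (counts scaled to a common library total) in liver, 1.08 to 1.99 in F1 spermatozoa and 0.262 to 0.358 in KO-F2 spermatozoa. This floor covers counting error only.

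In liver, 23 of the 45 genes were detected in all 4 libraries. This was 51.1% of the imprinted genes, beside 49.4% of all genes. The share was 10 of 26 among mostly paternal genes and 13 of 19 among mostly maternal genes. At the other end, 13 genes had at most 3 counts in every liver library, and 9 of them had 0 counts in all 4, namely Ascl2, Dlk1, Magel2, Nespas, Rasgrf1, Snrpn, Usp29, Zdbf2 and Zim1. Igf2 and H19, the fetal growth factor and the noncoding RNA that shares its enhancers, had 1 to 5 and 0 to 2 counts in adult liver. A count at or under the floor does not show that a gene is silent.

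The counts of the 45 genes in liver were led by a single transporter. They do not show whether it is imprinted there. Slc38a4 (chromosome 15, 96994823 to 97055956, minus strand, GRCm38.p6), which encodes an amino acid transporter of the hepatocyte and placenta, made up 48.5 and 50.7% of the counts of all 45 genes in Ctrl-F1 liver and 46.6 and 38.3% in KO-F1 liver. Gnas followed with 21.2 to 27.9% over the 4 libraries. Between genes, levels were compared as CPM of the library total per kilobase of exon. On that scale Slc38a4 stood at 311 and 339 for Ctrl-F1 and at 319 and 230 in KO-F1 liver. Cd81, a tetraspanin of the cell surface, came next with 153 and 133 for Ctrl-F1 and 146 and 176 for KO-F1. Slc22a18, a transporter of organic cations, stood at 84.3 and 68.9 for Ctrl-F1 and 84.4 and 89.4 for KO-F1. Its range overlapped that of Gnas, the gene of the stimulatory G protein alpha subunit, at 70.3 and 72.1 for Ctrl-F1 and 85.5 and 85.1 for KO-F1. Commd1, a copper and endosomal sorting factor, stood at 48.6 and 57.4 for Ctrl-F1 and 63.2 and 57.9 for KO-F1. Dcn, a matrix proteoglycan of stromal cells, followed with 29.1 and 44.6 for Ctrl-F1 and 45.9 and 25.1 for KO-F1. Over the 4 libraries Slc22a18 and Gnas overlapped, while no other neighbours among these 6 did. All other genes with an exon length had means of 15.6 per kilobase or less, led by H13.

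In spermatozoa, 17 of the 45 genes were detected in all 6 libraries, which was 37.8% beside 35.4% of all genes. They were 8 of the 26 mostly paternal and 9 of the 19 mostly maternal genes. In every sperm library 6 genes had at most 3 counts, and Magel2 and Zim1 had 0 counts in all 10 libraries of both tissues. Several genes were seen in only some libraries of a group. Plagl1, a zinc finger regulator of the imprinted gene network, had 51 counts in 1 Ctrl-F1 library and 0 in the other. Mkrn3, a makorin ring finger gene of the Prader-Willi region, had 20 counts in 1 KO-F1 library and 0 in all other sperm libraries. Dlk1, a Notch ligand of fetal tissues, had 20 counts in 1 Ctrl-F1 and 1 KO-F1 library and 0 in the other library of each group. KO-F2 libraries had 18 and 1 counts of Dlk1. No level is drawn from such counts.

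By counts, Gnas was the leading imprinted gene of every sperm library. It took 37 and 41.2% of the 45 genes' counts for Ctrl-F1, 76.7 and 62.5% for KO-F1 and 39.1 and 29.9% in KO-F2 spermatozoa. Per kilobase, Gnas stood at 55.3 and 69.1 CPM in Ctrl-F1, 336 and 189 for KO-F1 and 48.6 and 46.1 for KO-F2. Dcn was second by mean with 65.6 and 171 for Ctrl-F1, 126 and 162 for KO-F1 and 52.6 and 149 for KO-F2, and its libraries overlapped between all 3 groups. The 7 fibroblast and stroma markers, of which 5 to 7 were above the floor in each sperm library, summed to 354 and 873 CPM in Ctrl-F1, 431 and 944 for KO-F1 and 156 and 353 for KO-F2, and in each group the library with more Dcn also had more of them. Lum and Pdgfra were at 0 in 1 Ctrl-F1 library and Lum in 1 KO-F1 library. Their part in the Dcn level was not tested. Cdkn1c, a cyclin-dependent kinase inhibitor that restrains cell division, followed with 48 and 61.3 for Ctrl-F1, 36.3 and 40 for KO-F1 and 81 and 105 for KO-F2. Commd1 followed with 18.3 and 17.4 for Ctrl-F1, 34.5 and 41.7 for KO-F1 and 30.7 and 27.5 for KO-F2. Cd81 ranged widely, with 48.6 and 5.7 for Ctrl-F1, 14.7 and 25.6 for KO-F1 and 25.7 and 38 for KO-F2. Mcts2, a retrogene inside an intron of H13, was steadier with 16.5 and 20.8 for Ctrl-F1, 27 and 17.4 for KO-F1 and 22.8 and 19.3 for KO-F2. Over the 6 libraries the ranges of all neighbours in this order overlapped.

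**Figure D1:**
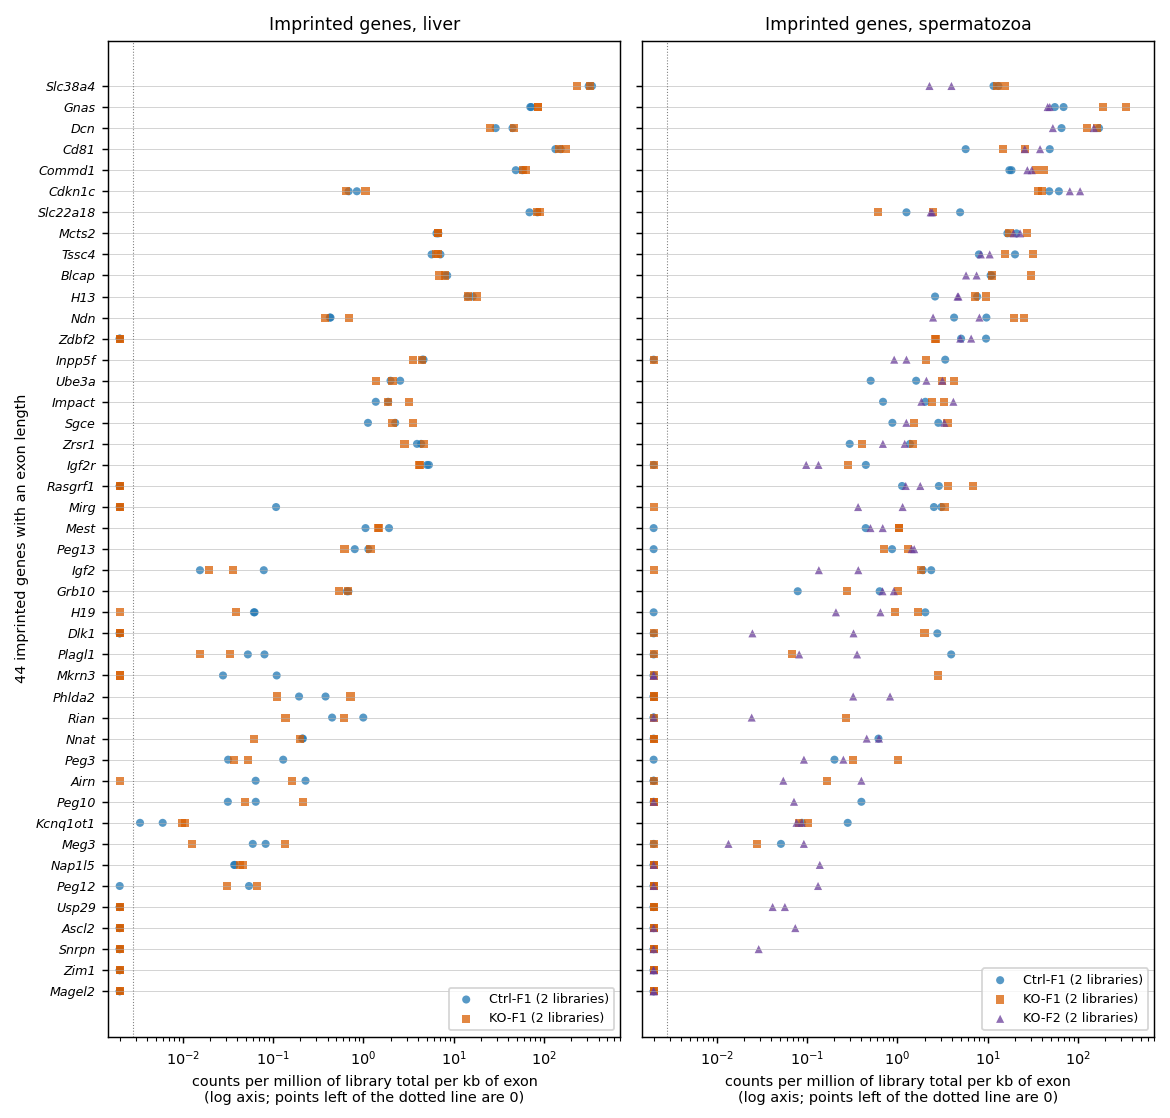
Level of each imprinted gene in each library, as CPM of the library total per kilobase of exon on a log axis, in liver (left) and spermatozoa (right). Each point is 1 library, coloured by group, and points left of the dotted line are 0. Slc38a4 leads in liver, where it lies between 230 and 339, and Gnas leads in KO-F1 spermatozoa at 189 and 336.

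The first comparison asked which imprinted transcripts differ between the liver and the sperm libraries when nothing about the father was altered. Between Ctrl-F1 spermatozoa and Ctrl-F1 liver, 7 of the 28 imprinted genes tested passed edgeR's quasi-likelihood test at a change of 2-fold or more with an adjusted p (Benjamini-Hochberg) under 0.01. The call rate over all genes was 30.2% (3990 of 13204). Higher in spermatozoa were 5, namely Zdbf2, Cdkn1c, Rasgrf1, Igf2 and Kcnq1ot1, and lower were 2, Slc38a4 and Slc22a18. The rates over all genes were 18.6% in the higher and 11.6% in the lower direction. The median log2 fold change was 0.04 over the 28 genes and -0.02 over all genes tested. The libraries of the tissues did not overlap for 23 of the 28 genes, or 82.1%, where 80.1% of all genes did so. The number called was 4 without either Ctrl-F1 liver library, where 18.7% (without replicate 1) and 19.1% (without replicate 2) of all genes were called. It was 18 of 28 without Ctrl-F1 sperm replicate 1, beside 55.7% of all genes, and 15 of 30 without Ctrl-F1 sperm replicate 2, beside 60.1%. Liver was sequenced from mRNA with a stranded kit and spermatozoa from amplified cDNA, so tissue and kit cannot be told apart in any of these values.

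Zdbf2 (chromosome 1, 63200358 to 63314575, plus strand) is a paternally expressed zinc finger gene known for its effect on postnatal growth. It had 305 and 100 counts in Ctrl-F1 spermatozoa and 0 counts in each of the 4 liver libraries. Against the floor of 3 counts per library, it was at least 453-fold higher by the mean in control spermatozoa than in control liver (edgeR adjusted p = 0.00141). The bound was 593-fold on sperm replicate 1 alone and 314-fold on sperm replicate 2 alone. Rasgrf1 (chromosome 9, 89909775 to 90026979, plus strand), a Ras exchange factor, showed the same pattern with fewer reads. It had 33 and 8 counts in Ctrl-F1 spermatozoa and 0 in every liver library, and was at least 44.6-fold higher by the mean (edgeR adjusted p = 0.00733). On sperm replicate 2 alone the bound was 25.1-fold. Nespas, the antisense RNA of the Gnas locus, had 22 and 4 counts in Ctrl-F1 spermatozoa and 0 in liver, at least 27.6-fold higher by the mean, with an edgeR adjusted p of 0.0102 that missed the threshold. Its bound was 42.8-fold on replicate 1 alone and 12.5-fold on replicate 2 alone. The sperm kit does not mark strand, while the liver kit does. Sense reads of the Gnas locus may therefore be counted as Nespas in spermatozoa, so these bounds may not be those of the antisense RNA alone.

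Cdkn1c (chromosome 7, 143458339 to 143461050, minus strand) had 226 and 179 counts in Ctrl-F1 spermatozoa and 19 and 23 in the deeper Ctrl-F1 liver libraries. This was 106 ± 18.3 against 1.49 ± 0.219 CPM of the library total (SD, n = 2), a log2 fold change of 6.42 ± 0.42 (SE, edgeR adjusted p = 0.0012). Kcnq1ot1 (chromosome 7, 143213111 to 143296547, minus strand) is the paternal noncoding RNA that silences the domain in which Cdkn1c lies. It had 57 and 11 counts in Ctrl-F1 spermatozoa and 4 and 7 in liver, with a log2 fold change of 5.47 ± 0.86 (SE, edgeR adjusted p = 0.00654). Its annotation is 1 exon block of 83437 bases that overlaps Kcnq1 on the opposite strand. The sperm kit does not mark strand, so reads of Kcnq1 may be counted as Kcnq1ot1 in spermatozoa. Igf2 (chromosome 7, 142650768 to 142666816, minus strand) had 26 and 13 counts in Ctrl-F1 spermatozoa and 1 and 5 in liver, with a log2 fold change of 5.67 ± 0.96 (SE, edgeR adjusted p = 0.00796). The calls of Rasgrf1, Kcnq1ot1 and Igf2 were lost when either Ctrl-F1 liver library was left out. Without liver replicate 1 the edgeR adjusted p was 0.0393 for Rasgrf1, 0.0591 for Kcnq1ot1 and 0.139 for Igf2. Without liver replicate 2 the edgeR adjusted p was 0.0389, 0.0404 and 0.0661 in the same order. The log2 fold change of Igf2 moved to 4.92 without liver replicate 1 and to 6.89 without liver replicate 2, and that of Kcnq1ot1 to 4.38 without Ctrl-F1 sperm replicate 1.

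The genes lower in spermatozoa were both transporters. Slc38a4 had 117 and 82 counts in Ctrl-F1 spermatozoa against 18499 and 19801 in liver, which was 51.4 ± 4.47 against 1354 ± 82.3 CPM (SD, n = 2) and a log2 fold change of -4.45 ± 0.34 (SE, edgeR adjusted p = 0.00122). Slc22a18 (chromosome 7, 143473789 to 143499334, plus strand) had 19 and 3 counts in Ctrl-F1 spermatozoa against 1907 and 1530 in liver, with a log2 fold change of -4.33 ± 0.55 (SE, edgeR adjusted p = 0.00396), which moved to -5.74 without Ctrl-F1 sperm replicate 1. It lies beside Cdkn1c in the domain of Kcnq1ot1 on chromosome 7, and both are known as maternally expressed, so neighbours of the same domain differed between the tissues in opposite directions. Gnas did not pass the test, with a log2 fold change of 0.08 ± 0.31 (SE, edgeR adjusted p = 0.843) that changed sign in some alternatives.

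**Figure D2:**
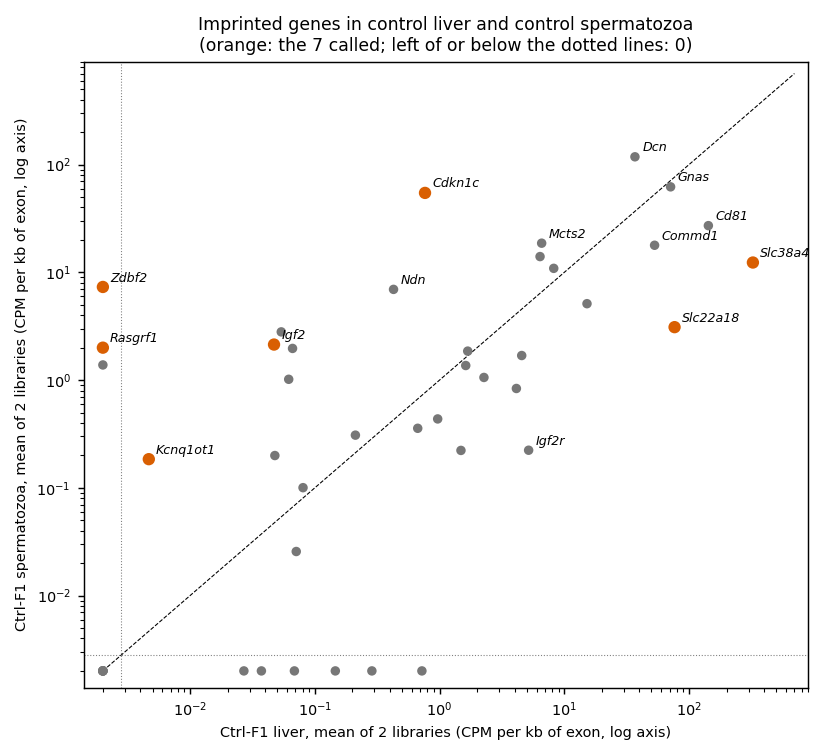
Mean level of each imprinted gene in Ctrl-F1 liver (horizontal) and Ctrl-F1 spermatozoa (vertical), as CPM of the library total per kilobase of exon on log axes, 2 libraries per tissue. The 7 called genes are orange and the dashed line marks equal levels. Zdbf2 and Rasgrf1 lie on the left edge because they are at 0 in liver, and Slc38a4 lies below the line at 325 against 12.3.

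The promoters of the genes called in this comparison differed in their CpG content. Windows of 3 of them are shown because imprints made of DNA methylation are laid on CpG. ZFP57, a zinc finger protein that protects imprints in the embryo, is known to bind the hexamer TGCCGC when its CpG is methylated. In RefSeq, 37 of the 45 genes had promoters listed on chromosomes other than 18, with 54 starts in all, each given as 250 bases before to 50 bases after the start in GRCm38.p6. No promoter sequence was used for H19, Peg10, Sgce, Peg13, Cdkn1c, Nespas, Impact and Dcn. The windows held a median of 15 CpG, beside 7 over all 32851 RefSeq promoters of the same length. The ratio of observed to expected CpG was 0.6 or more in 55.6% of them, beside 35.8% of all promoters. The hexamer TGCCGC or its reverse complement GCGGCA was present in 13 of the 54 windows (24.1%), beside 11.6% of all promoters. The hexamer itself holds a CpG, and its share was not compared between windows of like CpG content. Several genes have more than 1 of the 54 windows, some of them overlapping, and a match is a description of the letters only. The 250 bases upstream of both RefSeq starts of Zdbf2 and of the starts of Rasgrf1 and Slc22a18, 5′ to 3′ on the strand of the gene and with the hexamer in capitals, read as follows.
Zdbf2, upstream start, chr1:63200108-63200357, plus strand: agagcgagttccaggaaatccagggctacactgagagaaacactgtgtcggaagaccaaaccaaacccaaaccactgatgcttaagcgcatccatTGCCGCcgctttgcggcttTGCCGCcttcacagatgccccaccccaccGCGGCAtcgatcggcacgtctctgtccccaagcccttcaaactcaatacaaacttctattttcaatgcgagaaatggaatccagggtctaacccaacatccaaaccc
Zdbf2, downstream start, chr1:63273019-63273268, plus strand: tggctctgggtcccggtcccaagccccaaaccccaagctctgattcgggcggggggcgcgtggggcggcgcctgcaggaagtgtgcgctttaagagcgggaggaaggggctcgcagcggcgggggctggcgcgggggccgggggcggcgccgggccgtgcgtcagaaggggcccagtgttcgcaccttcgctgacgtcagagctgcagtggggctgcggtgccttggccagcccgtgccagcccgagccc
Rasgrf1, chr9:89909525-89909774, plus strand: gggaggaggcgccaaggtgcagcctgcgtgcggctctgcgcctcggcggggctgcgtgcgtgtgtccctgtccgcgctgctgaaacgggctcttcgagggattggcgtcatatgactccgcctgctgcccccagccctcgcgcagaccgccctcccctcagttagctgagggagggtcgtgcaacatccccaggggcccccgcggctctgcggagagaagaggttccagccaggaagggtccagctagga
Slc22a18, chr7:143473539-143473788, plus strand: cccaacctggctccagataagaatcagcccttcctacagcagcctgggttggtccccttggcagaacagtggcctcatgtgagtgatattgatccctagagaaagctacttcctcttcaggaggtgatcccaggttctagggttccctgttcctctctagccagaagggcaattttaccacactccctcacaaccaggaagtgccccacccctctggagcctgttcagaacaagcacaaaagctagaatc

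The upstream window of Zdbf2 held 13 CpG and 3 copies of the hexamer, on both strands, and its downstream window held 26 CpG and no copy. The upstream window of Rasgrf1 held 21 CpG and no copy. That of Slc22a18 held 0 CpG. The 3 starts of Slc38a4, the other gene lower in spermatozoa, had 5 CpG each in 300 bases and observed to expected ratios of 0.238, 0.306 and 0.335. The genes higher in spermatozoa were not all CpG-rich, since the start of Kcnq1ot1 had 9 CpG with a ratio of 0.422 and the 4 starts of Igf2 had ratios from 0.0999 to 0.896.

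The second comparison asked whether the liver of sons differs when the father lacked Scml2. Of the 23 imprinted genes tested, 0 were called by edgeR, and 0 had an unadjusted p under 0.05. Over all genes the call rate was 0% (0 of 11505), with 1083 genes at an unadjusted p under 0.05. DESeq2 called 0 imprinted genes and 20 genes in all. The log2 fold changes of the 23 genes lay between -0.85 and 1.18, with 22 of them within 1 of 0 and a median of 0.09, beside -0.01 over all genes. The libraries of the groups did not overlap for 5 of the 23 (21.7%), while 41.6% of all genes had groups that did not overlap.

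The 6 imprinted genes with the smallest p in liver were Impact, Gnas, Sgce, Commd1, Kcnq1ot1 and Igf2r. Impact, a translational regulator, stood at 5.34 and 6.79 TMM-normalized CPM for Ctrl-F1 and 12.2 and 7.59 in KO-F1 liver, with a log2 fold change of 0.71 ± 0.31 (SE, edgeR adjusted p = 0.534). Gnas stood at 585 and 556 for Ctrl-F1 and 699 and 732 for KO-F1, with a log2 fold change of 0.33 ± 0.15 (SE, edgeR adjusted p = 0.551). The KO-F1 libraries lay above the Ctrl-F1 libraries for both genes. Sgce, a sarcoglycan, stood at 2.13 and 3.96 for Ctrl-F1 and 3.92 and 7.04 for KO-F1, so its groups overlapped. Commd1 stood at 51 and 55.9 for Ctrl-F1 and 65.2 and 62.9 for KO-F1, and Kcnq1ot1 rested on 4 and 7 counts against 10 and 10. Igf2r, the scavenger receptor of IGF2, stood at 48.1 and 42.5 for Ctrl-F1 and 36.4 and 39.7 for KO-F1, with both KO-F1 libraries lower. The adjusted p of the last 4 lay at 0.593, 0.602, 0.61 and 0.626. Slc38a4, the listed gene with the most counts in liver, stood at 1316 and 1331 for Ctrl-F1 and at 1326 and 1004 for KO-F1. Its groups overlapped, and its log2 fold change was -0.18 ± 0.19 (SE, edgeR adjusted p = 0.791).

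**Figure D3:**
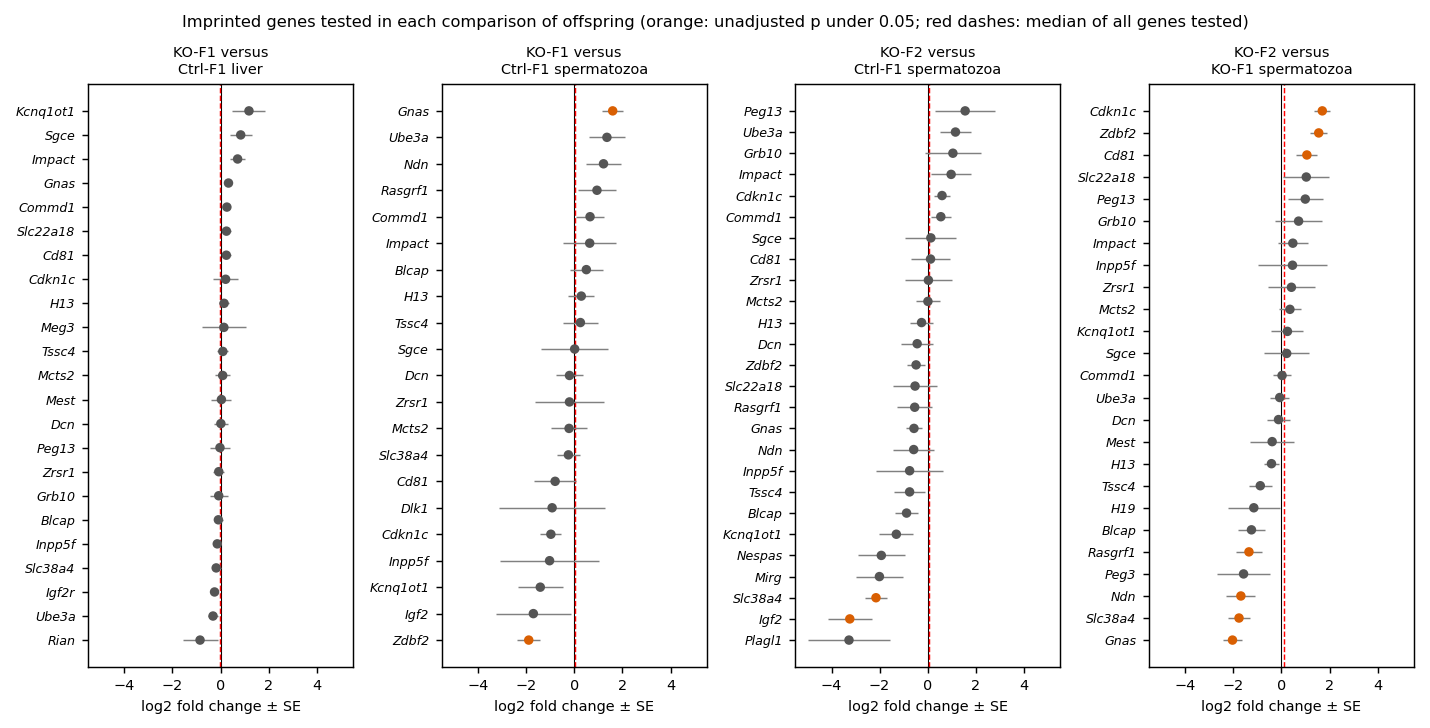
Log2 fold changes of the imprinted genes tested in each of the 4 comparisons of offspring, from edgeR with standard errors as horizontal lines. Genes with an unadjusted p under 0.05 are orange, and the red dashes mark the median of all genes tested. In liver 22 of 23 genes lie within 1 of 0, while in spermatozoa Gnas lies at 1.60 for KO-F1 against Ctrl-F1 and at -2.03 for KO-F2 against KO-F1.

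The third comparison asked the same of spermatozoa in the first generation. Of the 21 imprinted genes tested between KO-F1 and Ctrl-F1 spermatozoa, 0 were called by edgeR, and 2, Gnas and Zdbf2, had an unadjusted p under 0.05. Over all genes the call rate was 0% (0 of 10785), with 2105 genes at an unadjusted p under 0.05. DESeq2 called 1 imprinted gene, Gnas, of the 12 to which it gave an adjusted p, where its call rate over all genes was 7.8% (390 of 5000). The median log2 fold change was -0.20 over the 21 genes and 0.02 over all genes. With library totals these medians were 0.28 and 0.46, and with 1 library left out that of the imprinted genes lay between -0.47 and 0.58, the highest without Ctrl-F1 replicate 1. The groups did not overlap for 9 of the 21 genes (42.9%), beside 54.1% of all genes, with 5 higher and 4 lower in KO-F1.

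Gnas (chromosome 2, 174284320 to 174346744, plus strand) stood at 476 and 718 TMM-normalized CPM for Ctrl-F1, 2290 and 1387 for KO-F1 and 405 and 386 in KO-F2 spermatozoa. Both KO-F1 libraries lay above the other 4. Its log2 fold change in KO-F1 against Ctrl-F1 was 1.60 ± 0.44 (SE), with an unadjusted p of 0.00691 and an edgeR adjusted p of 0.142, and DESeq2 gave an adjusted p of 0.000529. Some epididymal and leukocyte genes were also highest in both KO-F1 libraries. Within Ctrl-F1 the library with more Gnas had less Cd52 and Krt18 and more Krt8. Within KO-F1 the library with more Gnas had more of all 3, and within KO-F2 it had more Cd52 and less Krt18 and Krt8. The 3 given here, Cd52, Krt18 and Krt8, were chosen after their values were seen, and most of their lists went the other way. Of 6 epididymal markers tested, only Krt18 and Krt8 were above 0 in KO-F1 against Ctrl-F1 and 4 were below, with a median log2 fold change of -0.37. Of 6 leukocyte markers tested, only Cd52 was above 0 and 5 were below, with a median of -0.55. Cd52, on the leukocyte list and also known as a major product of the epididymal epithelium, stood at 6718 and 2387 CPM of the library total in Ctrl-F1, 30705 and 12135 for KO-F1 and 3030 and 1411 for KO-F2. Krt18, an epithelial keratin, stood at 83.2 and 47.2 for Ctrl-F1, 322 and 176 for KO-F1 and 64.2 and 73.8 for KO-F2. Krt8, its partner, stood at 24.7 and 45.9, at 162 and 97.8 and at 23.4 and 31.5 in the same order. The 8 epididymal markers, led by Crisp1, summed to 18540 and 5698 CPM in Ctrl-F1, 9864 and 11990 for KO-F1 and 2996 and 1453 for KO-F2, with Lcn5 at 0 to 1 counts in F1 and 6 to 8 of the markers above the floor in each sperm library. The 7 leukocyte markers summed to 7029 and 3113, 31080 and 12690, and 6608 and 6451, with Ptprc at 0 in 1 Ctrl-F1 library and 6 or 7 of the markers above the floor. Without Cd52 they summed to 311 and 726 for Ctrl-F1, 377 and 560 for KO-F1 and 3578 and 5040 for KO-F2. The part of these cells in the Gnas values was not tested.

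Zdbf2 and Cdkn1c stood on the other side. Zdbf2 was at 132 and 84.4 TMM-normalized CPM for Ctrl-F1, 29.3 and 30.5 for KO-F1 and 87.6 and 66.6 in KO-F2 spermatozoa, with both KO-F1 libraries below the other 4. Its log2 fold change in KO-F1 against Ctrl-F1 was -1.89 ± 0.47 (SE), with an unadjusted p of 0.00393 and an edgeR adjusted p of 0.14, and DESeq2 gave 0.0133. Cdkn1c was at 98 and 151 for Ctrl-F1, 58.7 and 69.5 for KO-F1 and 160 and 209 for KO-F2, and again both KO-F1 libraries were the lowest. Its log2 fold change in KO-F1 against Ctrl-F1 was -0.97 ± 0.43 (SE), with an edgeR adjusted p of 0.267. The values of all 12 late-spermatid markers also lay below Ctrl-F1 in KO-F1, with log2 fold changes of -2.08 at the median. All 12 had an unadjusted p under 0.05, edgeR called 0 of them and DESeq2 called 12. Their part in the Zdbf2 and Cdkn1c values was not tested.

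**Figure D4:**
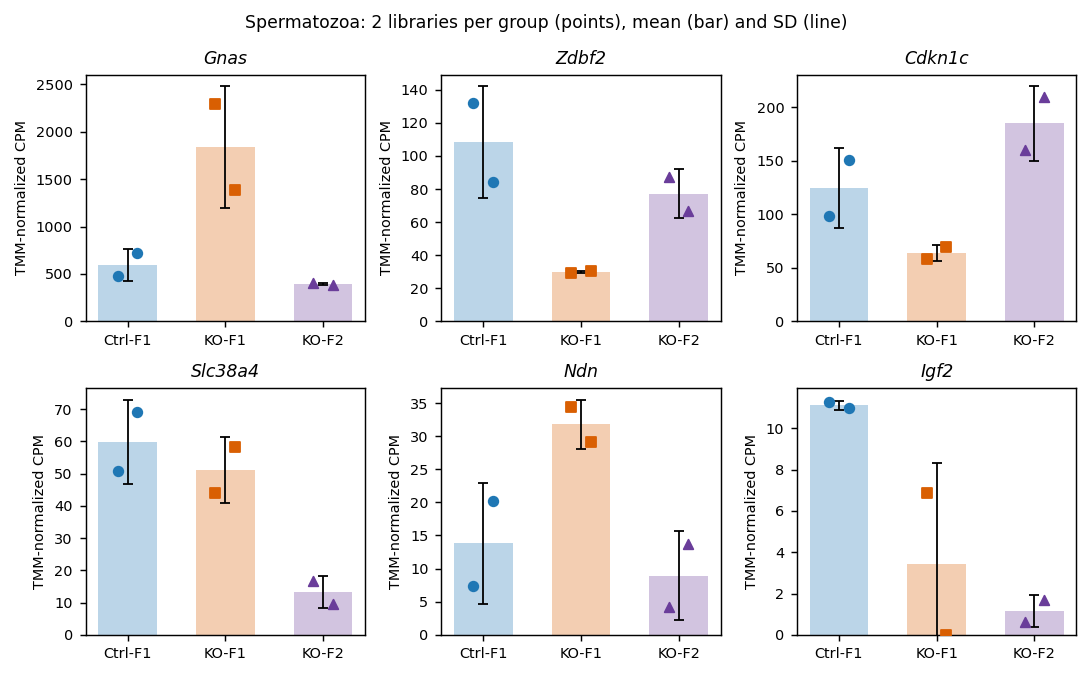
TMM-normalized CPM of 6 imprinted genes in Ctrl-F1, KO-F1 and KO-F2 spermatozoa. Points are the 2 libraries of a group, bars their mean and lines their SD, drawn only above 0. Gnas is highest and Zdbf2 lowest in KO-F1, Slc38a4 is lowest in KO-F2, and Igf2 is lower in both KO-F2 libraries than in Ctrl-F1, with 1 KO-F1 library at 0.

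The other genes among the 6 smallest p were Ube3a, Ndn and Kcnq1ot1. Ube3a, a ubiquitin ligase that is imprinted in neurons, stood at 15.6 and 5.91 TMM-normalized CPM for Ctrl-F1 and 32.3 and 25.7 in KO-F1 spermatozoa, with both KO-F1 libraries higher. Ndn, a MAGE family regulator from the Prader-Willi region, stood at 7.37 and 20.2 for Ctrl-F1 and 34.4 and 29.2 for KO-F1, again without overlap. Kcnq1ot1 stood at 24.7 and 9.28 for Ctrl-F1 and 7.19 and 6 for KO-F1, with the KO-F1 libraries lower. Their log2 fold changes were 1.36 ± 0.75, 1.22 ± 0.72 and -1.41 ± 0.94 (SE), and their edgeR adjusted p values were 0.369, 0.402 and 0.456.

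Whether the effect of the father differed between spermatozoa and liver was tested with an interaction term over the 8 F1 libraries. The test was added after seeing the data. Of 14415 genes, 0 were called by edgeR (0%), and 2068 had an unadjusted p under 0.05. Among the 31 imprinted genes tested there were 3. DESeq2 was not run for the interaction. Dlk1, Nespas, Rasgrf1 and Zdbf2 had 0 counts in every liver library, so they have no measured effect in liver. The test could not decide for these genes, with unadjusted p from 0.99955 to 0.99972 by edgeR. The imprinted gene with the smallest p was Gnas, whose log2 fold change was 1.18 higher in spermatozoa than in liver (unadjusted p = 0.0309, edgeR adjusted p = 0.306). The tissue and the kit are the same split here too.

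**Figure D5:**
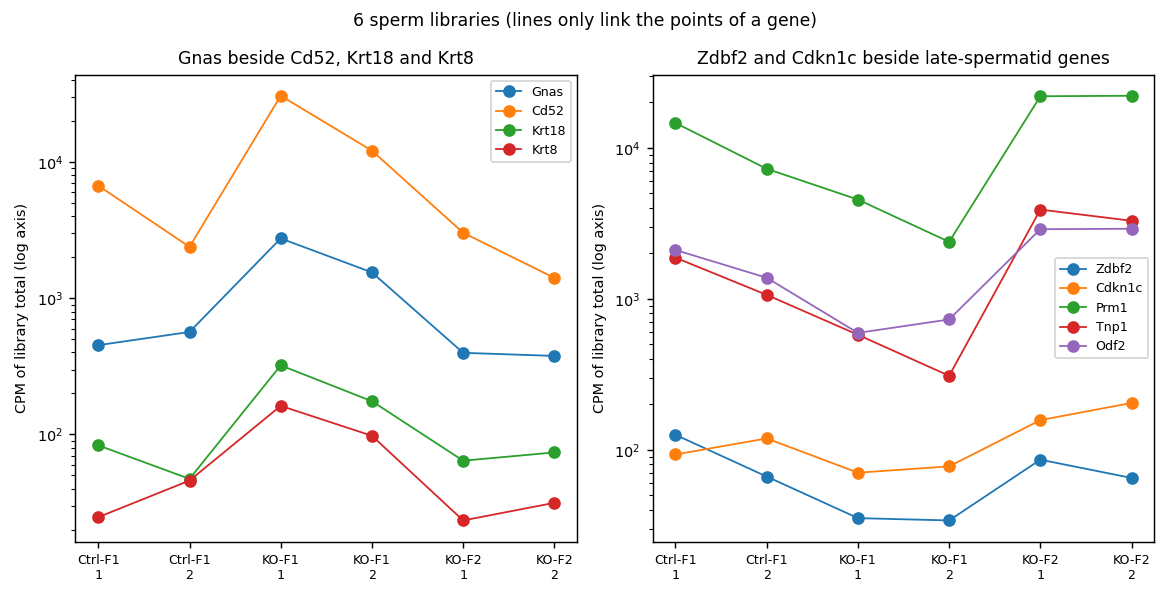
CPM of the library total (log axis) in the 6 sperm libraries, for Gnas beside Cd52, Krt18 and Krt8 (left) and for Zdbf2 and Cdkn1c beside the late-spermatid genes Prm1, Tnp1 and Odf2 (right). Each point is 1 library and lines only link the points of a gene. Gnas, Cd52, Krt18 and Krt8 are all highest in the KO-F1 libraries, unlike the other tested markers of their lists (4 epididymal and 5 leukocyte markers below Ctrl-F1), and Zdbf2, Cdkn1c and the 3 late-spermatid genes are all lowest there.

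The fourth comparison asked what remained in the second generation. Of the 26 imprinted genes tested between KO-F2 and Ctrl-F1 spermatozoa, 0 were called by edgeR and 2, Slc38a4 and Igf2, had an unadjusted p under 0.05. Over all genes the call rate was 0% (0 of 13149), with 1960 genes at an unadjusted p under 0.05. DESeq2 called 1 imprinted gene, Slc38a4, of 27 with an adjusted p, where its rate over all genes was 2.14% (277 of 12963). The groups did not overlap for 11 of the 26 genes (42.3%), beside 48.1% of all genes, with 4 higher and 7 lower in KO-F2. The median log2 fold change was -0.51 over the 26 genes and 0.07 over all genes. The median over the imprinted genes turned to 0.24 without Ctrl-F1 replicate 2 and to 0.07 with no filter on low counts, where that of all genes was 0.25 and 0.31.

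Slc38a4 stood at 50.7 and 69.2 TMM-normalized CPM for Ctrl-F1, 44 and 58.3 for KO-F1 and 16.8 and 9.64 in KO-F2 spermatozoa, so that both KO-F2 libraries were the lowest of the 6. Its log2 fold change in KO-F2 against Ctrl-F1 was -2.15 ± 0.46 (SE), with an unadjusted p of 0.00318 and an edgeR adjusted p of 0.175, while DESeq2 gave 0.00616. Igf2 had 26 and 13 counts for Ctrl-F1, 23 and 0 for KO-F1 and 7 and 14 in the deeper KO-F2 libraries. Its log2 fold change in KO-F2 against Ctrl-F1 was -3.24 ± 0.92 (SE, edgeR adjusted p = 0.221). Both KO-F2 libraries lay below both Ctrl-F1 libraries for it once depth was taken into account. Markers of other cells differed in the same comparison, with 0 called by edgeR. Of 7 stroma markers 6 were below 0, with a median log2 fold change of -1.49, and Col1a1, Col3a1 and Sparc had an unadjusted p under 0.05. Of 7 leukocyte markers 6 were above 0, with a median of 2.08, and DESeq2 called Cd74, Laptm5 and Lyz2. Of 7 epididymal markers 5 were below 0, with a median of -0.55, and DESeq2 called Aqp9, Cdh1 and Crisp1. Their part in the Slc38a4 and Igf2 values was not tested.

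The other 4 genes of smallest p in KO-F2 were Mirg, Nespas, Plagl1 and Blcap, of which Mirg, Nespas and Plagl1 had few counts in at least 1 library. Mirg, a host of microRNAs in the Dlk1 domain, had 8 and 6 counts for Ctrl-F1 and 17 and 4 for KO-F2, with a log2 fold change of -2.01 ± 0.98 (SE, edgeR adjusted p = 0.417). Nespas had 22 and 4 counts for Ctrl-F1, 0 and 0 for KO-F1 and 26 and 9 for KO-F2, with a log2 fold change of -1.93 ± 0.98 for KO-F2 against Ctrl-F1 (SE, edgeR adjusted p = 0.434). Plagl1 had 51 and 0 counts for Ctrl-F1 and 5 and 16 for KO-F2. Its log2 fold change of -3.27 ± 1.71 (SE, edgeR adjusted p = 0.448) turned to 6.03 when the Ctrl-F1 library with 51 counts (replicate 1) was left out, and was -4.22 with an adjusted p of 0.00999, past the threshold, without the other (replicate 2), a fit that called 1.84% of all genes. Blcap, a small membrane protein gene that encloses Nnat, stood at 23.8 and 29.5 TMM-normalized CPM for Ctrl-F1 and 12.3 and 16.2 for KO-F2, with both KO-F2 libraries lower and an edgeR adjusted p of 0.448. With 1 library left out, the log2 fold change of Blcap stayed between -1.06 and -0.68. Gnas, Zdbf2 and Cdkn1c had log2 fold changes of -0.57 ± 0.32, -0.49 ± 0.37 and 0.59 ± 0.34 (SE) in KO-F2 against Ctrl-F1, with edgeR adjusted p values of 0.475, 0.615 and 0.492.

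The fifth comparison set the generations against each other, since both comparisons above share the Ctrl-F1 libraries. Of the 25 imprinted genes tested between KO-F2 and KO-F1 spermatozoa, 0 were called by edgeR. Over all genes the call rate was 2.31% (312 of 13517). At an adjusted p under 0.05 with no fold threshold, 4 of the 25 passed, namely Gnas, Cdkn1c, Zdbf2 and Slc38a4, beside 20.4% of all genes (2759). DESeq2 at the main thresholds called these 4 genes of 32 with an adjusted p, at a rate over all genes of 13.6% (2058 of 15135). The groups did not overlap for 15 of the 25 genes (60%), beside 65.9% of all genes, with 6 higher and 9 lower in KO-F2. Without KO-F1 replicate 1 the main test called 1 of 31, Blcap, beside 10.3% of all genes, and without KO-F1 replicate 2 it called 4 of 32, Cdkn1c, Gnas, Inpp5f and Mkrn3, beside 19.2%. At an unadjusted p under 0.05 there were 7 imprinted genes and 4968 of all genes.

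The log2 fold change of Gnas in KO-F2 against KO-F1 was -2.03 ± 0.38 (SE, edgeR adjusted p = 0.0151). That of Cdkn1c was 1.70 ± 0.32 (SE, edgeR adjusted p = 0.0162) and that of Zdbf2 was 1.55 ± 0.35 (SE, edgeR adjusted p = 0.025). Slc38a4 had a log2 fold change of -1.76 ± 0.45 (SE, edgeR adjusted p = 0.0348). The 2 libraries of each generation did not overlap for any of these 4 genes. Ndn had a log2 fold change of -1.68 ± 0.60 (SE, edgeR adjusted p = 0.0876), at 34.4 and 29.2 TMM-normalized CPM in KO-F1 and 4.18 and 13.7 for KO-F2. Rasgrf1 stood at 27 and 15.4 for KO-F1 and 8.62 and 5.98 for KO-F2, with a log2 fold change of -1.35 ± 0.54 (SE, edgeR adjusted p = 0.118). Cd81, the last gene at an unadjusted p under 0.05, had a log2 fold change of 1.06 ± 0.44 (SE, edgeR adjusted p = 0.126). The same libraries differed in their markers. All 12 late-spermatid markers had higher values in KO-F2 than in KO-F1, of which edgeR called 4. Among the 7 leukocyte markers 6 were above 0, and edgeR called Ptprc, Cd74, Laptm5 and Lyz2 higher. Cd52 was the 1 below 0, and DESeq2 called all 7. Of 7 epididymal markers tested 5 were below 0, with a median log2 fold change of -1.41. Of these 7, edgeR called 0 and DESeq2 called Aqp9, Cdh1, Crisp1, Krt18 and Krt8. The part of these markers in the values of the imprinted genes was not tested. KO-F2 and KO-F1 also differed in conception (natural mating against ICSI), in background strain and in sequencing depth, which cannot be told apart from generation.

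The genes were also grouped by the allele they are known to use. In the 4 comparisons of offspring edgeR called 0 of either group, and the counts at an unadjusted p under 0.05 and by DESeq2 are those of the genes named above. In KO-F1 against Ctrl-F1 liver, the median log2 fold change was 0.03 over 9 mostly paternal genes and 0.11 over 14 mostly maternal genes, beside -0.01 over all genes. In KO-F1 against Ctrl-F1 spermatozoa it was -0.23 over 12 mostly paternal and 0.29 over 9 mostly maternal genes, beside 0.02. In KO-F2 against Ctrl-F1 spermatozoa it was -0.57 over 14 and -0.35 over 12 genes, beside 0.07. In KO-F2 against KO-F1 spermatozoa it was 0.25 over 13 and -0.09 over 12 genes, beside 0.13. The summed level of the mostly maternal genes was made up mostly of Gnas in KO-F1, with 913 and 1171 CPM of the library total in Ctrl-F1, 2251 and 3358 for KO-F1 and 841 and 1098 in KO-F2 spermatozoa as the lowest and highest libraries of each group. That of the mostly paternal genes lay between 204 and 311, between 229 and 234, and between 166 and 176 CPM. In RefSeq Gnas has 18 exon blocks of 8192 bases in all and several starts. It was counted under 1 symbol, so its transcripts were not separated. The sum of the mostly maternal genes holds all of them, and the per-kilobase values of Gnas divide by all these bases.

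Imprinted genes often lie inside or opposite each other, and the strand setting of the counting is not given in the sources used here. Zrsr1, a splicing factor retrogene, lies within Commd1 on the opposite strand and shares 216 bases of exon with it, or 4.81% of its own exons and 20.9% of those of Commd1. In liver Zrsr1 had 251 and 274 counts for Ctrl-F1 and 256 and 145 for KO-F1, beside 717 and 832 and 799 and 679 for Commd1. Reads in the shared bases cannot be assigned without strand. In spermatozoa Zrsr1 had 15 and 2 counts for Ctrl-F1, 5 and 14 for KO-F1 and 62 and 26 for KO-F2, beside 46 and 27, 99 and 90, and 364 and 238 for Commd1. Commd1 exceeded Zrsr1 in all 10 libraries by counts. Mcts2 and H13, a signal peptide peptidase gene, share no exon bases, and neither do Airn and Igf2r or Nnat and Blcap. In liver Mcts2 had 77 and 72 counts for Ctrl-F1 and 65 and 61 for KO-F1, where H13 had 2300 and 1980, and 1727 and 2017. In spermatozoa Mcts2 had 32 and 25 counts for Ctrl-F1, 60 and 29 for KO-F1 and 209 and 129 for KO-F2, where H13 had 184 and 39, 263 and 150, and 527 and 395. H13 thus led by counts in every library, by less in spermatozoa than in liver. Airn, the noncoding RNA that silences the paternal Igf2r allele, had 2 and 7 counts for Ctrl-F1 and 0 and 4 in KO-F1 liver, where Igf2r had 676 and 633, and 446 and 429. In spermatozoa Airn had 0 and 0 counts for Ctrl-F1, 1 and 0 for KO-F1 and 10 and 1 for KO-F2, where Igf2r had 0 and 6, 7 and 0, and 10 and 10. Both were near or under the floor in spermatozoa. Nnat, a proteolipid of brain and islets, had 4 and 4 counts for Ctrl-F1 and 1 and 3 in KO-F1 liver, where Blcap had 241 and 250, and 206 and 162. In spermatozoa Nnat had 2 and 0 counts for Ctrl-F1, 0 and 0 for KO-F1 and 7 and 7 for KO-F2, where Blcap had 55 and 35, 65 and 132, and 139 and 133. Blcap was thus seen in every library, and Nnat had at most 7 counts in any. Peg3, a zinc finger gene, and Usp29, a ubiquitin protease gene, start from the same control region in opposite directions. Usp29 had 0 counts in every liver and F1 sperm library and 7 in each KO-F2 library, while Peg3 had 3, 12, 3 and 4 counts in the liver libraries and 0 and 2 for Ctrl-F1, 6 and 14 for KO-F1 and 7 and 14 in KO-F2 spermatozoa. Mest, a hydrolase gene, shares 32.9% of its exon bases with Copg2, and Snrpn, a splicing factor gene, 49.3% with Snurf, so their counts may be incomplete. Nespas has no position in the annotation used here, so its overlap with Gnas was not measured. Reads of the 2 genes may not be separated in spermatozoa, where the kit does not mark strand. The same holds for Kcnq1ot1 and Kcnq1, which overlap on opposite strands and share 121 bases of exon.

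The proteins that set, read or protect imprints were examined as a list of 20 genes, and 26 further genes of imprinted domains as another. In all 4 comparisons of offspring, edgeR called 0 genes of either list. At an unadjusted p under 0.05 there were 0 machinery genes in KO-F1 liver, 1 for KO-F1 and 0 in KO-F2 spermatozoa against Ctrl-F1, and 3 between the generations, beside 0, 0, 2 and 4 domain neighbours. DESeq2 called Ehmt2 in KO-F1 spermatozoa, and Ehmt2, Slc22a3 and Tspan32 between the generations, where its rates over all genes were 7.8% and 13.6%. Between Ctrl-F1 spermatozoa and liver, where 30.2% of all genes were called, 1 of 13 tested machinery genes was called, Uhrf1, which brings the maintenance methyltransferase to newly replicated DNA. It stood at 34.7 and 11.8 TMM-normalized CPM in Ctrl-F1 spermatozoa and 0.142 and 0.202 in Ctrl-F1 liver, scaled within each tissue. The log2 fold change of Uhrf1 was 6.99 ± 0.90 (SE, edgeR adjusted p = 0.00406). Both of its liver values lie at or under the floor of 3 counts, so the size of this change is uncertain. Ehmt2, a histone H3 lysine 9 methyltransferase, had the smallest adjusted p of its list in KO-F1 against Ctrl-F1 spermatozoa (edgeR adjusted p = 0.14) and between the generations. Its mean was 129 ± 12.7 TMM-normalized CPM for Ctrl-F1, 31.6 ± 6.94 for KO-F1 and 134 ± 5.91 in KO-F2 spermatozoa (SD, n = 2). The log2 fold change between KO-F2 and KO-F1 was 2.26 ± 0.34 (SE, edgeR adjusted p = 0.0104). Among the domain neighbours, 4 of 16 tested were called between the tissues, again beside 30.2% of all genes, with Sfmbt2, a Polycomb group gene, higher in spermatozoa and Ddc, Dhcr7 and Pon3 lower. Sfmbt2 had a log2 fold change of 5.41 ± 0.70 (SE, edgeR adjusted p = 0.00406). Pon3, a paraoxonase of liver, was at 0 in both Ctrl-F1 sperm libraries and was at least 42.3-fold higher in liver (edgeR adjusted p = 0.00205).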

How the data were processed

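RNA-seq counts of 10 mouse libraries were used, 2 replicates in each of 5 groups (liver of Ctrl-F1 and KO-F1, spermatozoa of Ctrl-F1, KO-F1 and KO-F2). The values are raw read counts per gene symbol as deposited by the authors, who aligned single-end 75-base reads to GRCm38 with HISAT2 2.1.0 and counted uniquely aligned reads with featureCounts. The annotation and the strand setting of the counting are not given in the sources used here. Liver libraries came from a stranded mRNA kit and sperm libraries from amplified cDNA whose kit does not mark strand. Without molecular identifiers, PCR copies cannot be recognized, and floors cover counting error only. The 37 other samples were not analysed here.

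Of 23420 lines, 4 with a repeated symbol were dropped. Libraries held 1503733 to 14278900 counts. Comparisons used edgeR 4.0.16 in R 4.3.3 (TMM, filterByExpr with a minimum count of 10 and a minimum total of 15, quasi-likelihood F test, Benjamini-Hochberg adjustment over all genes tested). Genes were called at 2-fold or more and an adjusted p under 0.01. The standard error was the log2 fold change divided by the square root of the F statistic. DESeq2 1.42.0, its size factors, library totals, 2 other filters, an adjusted p under 0.05, the replicate number as a block, leaving out each library and all sperm groups in 1 model were alternatives. The fits were run on simulated counts with a fixed spread between replicates that was not taken from these libraries. That run gives no measure of power in these data. Levels were CPM of the library total, the same per kilobase of exon (44 of 45 genes had a RefSeq position), and TMM-normalized CPM within a tissue. Positions and promoters are from RefSeq, GRCm38.p6.

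The members and all lists were chosen with earlier results of these data known. Values are given for the called genes of a comparison, otherwise for the 6 with the smallest p, for the 6 highest in each tissue and for nested or antisense pairs. The methods call the libraries of a group independent biological replicates, and 2 per group limit every test.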

Additional observations from a re-analysis of the deposited data

How the results depend on the processing

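Of the 123 log2 fold changes of imprinted genes in the 5 comparisons, 29 had an unadjusted p under 0.05 by edgeR, and 0 of these changed sign. These 29 were picked by p in the same libraries, so their stable sign adds no support of its own. Of the other 94, 47 changed sign in at least 1 alternative. They include Gnas between the tissues (0.08, from -0.29 to 0.14 with 1 library left out), Slc38a4 in KO-F1 liver (-0.18, from -0.39 to 0.0049) and, alone of the 31 values picked by the naming rule, Plagl1 in KO-F2 against Ctrl-F1 spermatozoa, which turned to a log2 fold change of 6.03 without Ctrl-F1 sperm replicate 1 and ranged from -4.56 to 6.03 with 1 library left out. No alternative called an imprinted gene in KO-F1 liver. In KO-F1 against Ctrl-F1 spermatozoa DESeq2 called 1 gene (Gnas), and leaving out a library called 0. In KO-F2 against Ctrl-F1 spermatozoa DESeq2 called 1 (Slc38a4), and leaving out a library called 0 to 1. Between KO-F2 and KO-F1 spermatozoa the main test called 0, DESeq2 4, no filter 4, a filter at 10 counts per library 3, an adjusted p under 0.05 called 4, and leaving out a library 0 to 4. Between Ctrl-F1 spermatozoa and liver the main test called 7, DESeq2 11, a filter at 10 counts 4, an adjusted p under 0.05 called 15, and leaving out a library 4 to 18. The stricter filter tested 16 and 11 imprinted genes in these comparisons, and the cause of the other moves was not tested. One model of the 3 sperm groups and a detection limit of 10 counts were chosen after seeing the data. The model called 0 imprinted genes in each comparison, and the limit left 20 genes detected in liver and 13 in spermatozoa.

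Nothing in the labels ties same-numbered libraries to each other, so they share only a number. The correlation of their deviations was between -0.0895 and 0.127. With a replicate block edgeR called 1 imprinted gene in KO-F2 against Ctrl-F1 spermatozoa (Slc38a4), 1 between the generations (Gnas) and 4 between the tissues (Cdkn1c, Slc22a18, Slc38a4 and Zdbf2), and 0 in both KO-F1 comparisons. The block moved the calls over all genes from 0 to 362 in KO-F2 against Ctrl-F1, from 312 to 819 between the generations and from 0 to 2 in liver.

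Calls over all genes also moved by more than 1.5 times. In KO-F1 spermatozoa they went from 0 to 390 with DESeq2, 113 with no filter and 200 with the stricter filter. In KO-F2 against Ctrl-F1 they went from 0 to 277 with DESeq2 and 39 with no filter, and 2 in the single model. Between the generations they went from 312 to 2058 with DESeq2, 2552 with no filter, 1805 with the stricter filter, 198 in the single model and 0 with library totals. Between the tissues they went from 3990 to 1987 with the stricter filter, and in liver from 0 to 20 with DESeq2 and 25 with no filter. Leaving out any 1 library also raised the calls over all genes in liver and in KO-F2 against Ctrl-F1. Such a fit has 1 library in a group. Scaling to library totals moved the median log2 fold change of all genes to 0.46 in KO-F1 and 0.23 in KO-F2 spermatozoa against Ctrl-F1, -0.30 between the generations and -0.26 between the tissues. With 1 library left out, the median over imprinted genes lay between -0.32 and 0.61 between the tissues, between -0.0025 and 0.10 in liver and between -0.33 and 0.11 between the generations. The medians over the allele groups were not recomputed under the alternatives. Low depth of the F1 sperm libraries limits the genes at a few counts.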

Other observations

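Mcts2 is a retrogene copy of the X-linked gene Mcts1, which encodes a translation factor, and this pair was looked at after the values of Mcts2 were seen. In liver Mcts2 had 61 to 77 counts and Mcts1 281 to 392. Per kilobase of exon the level of Mcts2 was 0.446 and 0.356 of that of Mcts1 in Ctrl-F1 liver and 0.308 and 0.403 in KO-F1 liver. In spermatozoa the order was turned. The ratio of Mcts2 to Mcts1 was 3.30 and 7.74 for Ctrl-F1, 7.96 and 3.37 for KO-F1 and 6.47 and 5.32 for KO-F2, so all 6 sperm libraries lay above 1 and all 4 liver libraries below it. Mcts1 had only 6 to 18 counts in the F1 sperm libraries. The copies share sequence, and uniquely aligned reads may be lost from either, so the ratios are uncertain. Tissue and kit cannot be told apart in them.

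Zrsr1 is likewise a retrogene copy of the X-linked Zrsr2. Its ratio to Zrsr2 per kilobase was 2.99 and 3.73 for Ctrl-F1 and 4.07 and 2.36 in KO-F1 liver. In spermatozoa it scattered from 0.0703 to 6.67 over the 6 libraries, with 2 to 62 counts of Zrsr1, and no order of the tissues is drawn from it.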
